A study of Mus musculus with 21 samples.

Results

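Arterial endothelial cells of the adult mouse brain were described in 1 single-cell library. They were selected on their own UMIs (unique molecular identifiers, which count RNA molecules after PCR duplicates are merged). A cell entered when it carried UMIs of at least 2 of the 5 artery markers Gkn3, Bmx, Vegfc, Fbln5 and Mgp, at least 3 UMIs of the 5 in all, and no UMI of Plvap, the diaphragm protein of leaky endothelium. The rule was applied to cells with at least 500 genes and at most 10% mitochondrial UMIs. It found 719 cells, which is 8.32% of the 8645 kept cells and 7.64% of all 9405 barcodes. The comparison cells were the 6694 kept cells with no UMI of any of the 5 markers and at least 1 UMI of Cldn5, the main tight-junction claudin of brain endothelium. Another 1232 kept cells fell in neither group.

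Brain arteries carry blood under pressure from the skull base into the tissue, and their endothelium grades into arterioles, capillaries, venules and veins. Arterial identity is set up by VEGF and Notch signalling and the SoxF factors, and is known by the ephrin Efnb2, the Notch target Hey1 and the gap-junction protein Gja4. Capillary endothelium carries most of the nutrient transport of the blood-brain barrier, whereas larger arteries sit on an elastic lamina and pass signals to a coat of smooth muscle.

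The library was made from endothelial cells of C57BL/6J mice aged 2 to 4 months, labelled as young. Cells were taken from perfused, enzyme-digested brain from which myelin had been spun off, and sorted live as CD31+ PDGFRβ- CD45-. The same study holds bulk RNA of endothelial cells sorted in this way from brain, lung and liver, with 3 libraries each. The labels do not say how many animals the single-cell library holds. With 1 library there is no replicate check, so no test between cells was made: the intervals below (95%, exact) cover counting error only. The values are also descriptions in another sense, because the cells were chosen by UMIs of the same library in which their other genes were read. The arterial cells held 5120519 UMIs in all with a median of 6778 per cell, against 31399776 and a median of 4283.5 in the comparison cells. Levels are given as CPM, the UMIs of a gene summed over a group and scaled to a common total of UMIs, which is comparable between groups for a gene and not corrected for length between genes. Because the arterial cells were deeper, shares of cells are for some genes also given after each cell was thinned to 1000 UMIs. All other shares are unthinned, and the greater depth of the arterial cells raises theirs.

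The selection markers were unevenly spread over the 719 cells. Bmx, a non-receptor tyrosine kinase of large-artery endothelium, had UMIs in 571 cells (79.4%), Mgp in 532 (74.0%), Vegfc in 497 (69.1%), Gkn3 in 474 (65.9%) and Fbln5 in 186 (25.9%). Cells with 2 markers numbered 237, cells with 3 numbered 227, cells with 4 numbered 170, and 85 cells carried all 5. Mgp, the matrix Gla protein that binds calcium and BMPs, reached 2499 CPM, but the 71 cells with the most Mgp held 74.0% of its UMIs and a single cell held 532. Fbln5, a scaffold of elastic fibres, was as concentrated, with 82.4% of its UMIs in its top 71 cells. Bmx and Vegfc were the most even, with 32.9% and 34.2% of their UMIs in the top 71 cells. Among 11 kept barcodes with no UMI of the endothelial definition genes, 7 carried Mgp and none carried the other 4, a count that allows a share of up to 27.3%.

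Of the 32285 genes in the table, 5911 were measured, meaning a mean of both groups' CPM of at least 25. The arterial cells were at least 2-fold higher for 172 of them (2.91%) and at least 2-fold lower for 126 (2.13%). Of the 172, 78 had a comparison level under the floor and were measured only through the arterial cells. The median log2 ratio of all measured genes was 0.01. The largest ratio was that of Cytl1, a small secreted protein, at 86.1 CPM in arterial cells and 0.096 CPM, from 3 UMIs, in comparison cells (901-fold, interval 306 to 4388). Cytl1 came from 37 arterial cells (5.15%), so it marked a small fraction of them. Clu, the secreted chaperone clusterin, was broader: it stood at 353 CPM against 3.41 CPM, 103-fold (85.1 to 127), with UMIs in 31.8% of arterial and 0.881% of comparison cells. Nos1, the neuronal nitric oxide synthase, was at 66.2 CPM against 0.605 CPM (109-fold, 69.0 to 184) and was found in 22.4% of arterial cells. The calcium-binding proteins S100a4 and S100a6 were at 59.4 and 139 CPM against 0.223 and 3.60 CPM. Pi16, a peptidase inhibitor domain protein known to respond to flow, was at 132 CPM against 0.637 CPM, with UMIs in 14.9% of arterial cells. Tmem100, a membrane protein induced by BMP9 and ALK1 signalling in arteries, was the most widespread of the leading genes. It was at 418 CPM, 26.1-fold higher (23.7 to 28.8), and had UMIs in 63.6% of arterial and 4.38% of comparison cells. Laptm5, a lysosomal membrane protein best known from leukocytes, was at 74.4 CPM against 0.860 CPM. In the same arterial cells 9 of 10 leukocyte markers had no UMI, Ptprc (CD45) among them, and the whole list summed to 8 UMIs, or 1.56 CPM against 2.10 CPM in comparison cells. The remaining leading genes were Col18a1, Npnt, Bgn, Timp2, Atp2a3, Gja4 and Eln, between 23.6-fold and 90.8-fold higher.

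**Figure D1:**
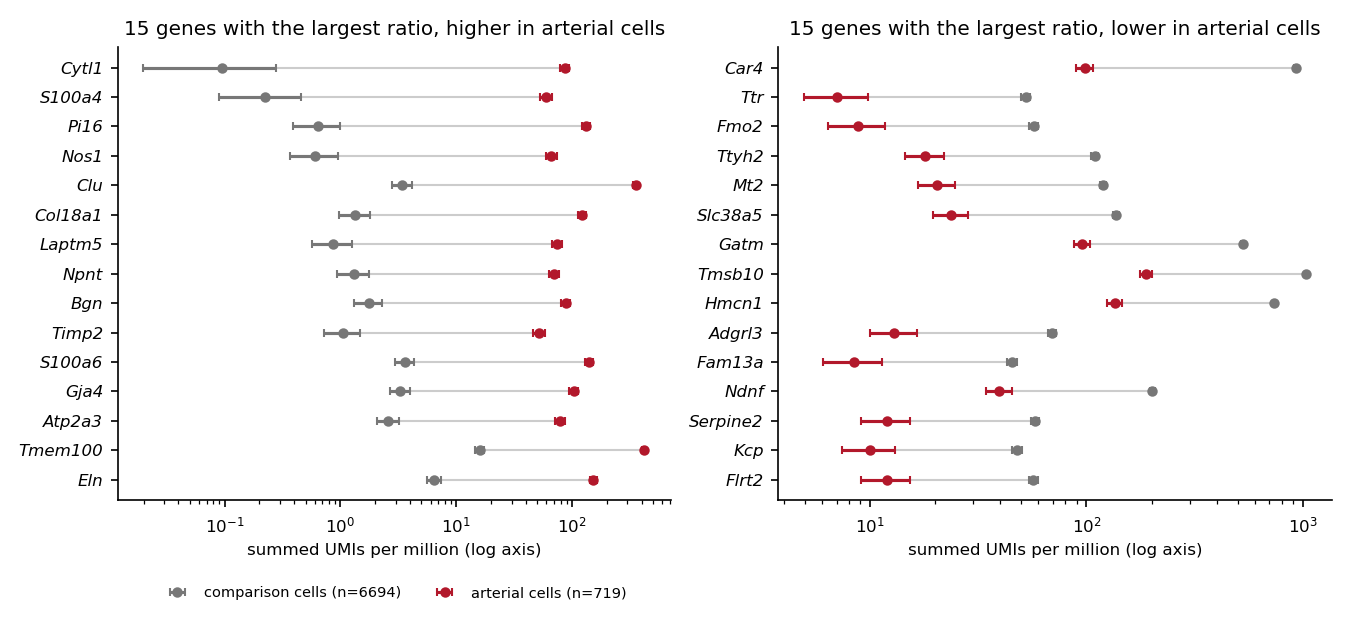
Summed CPM on a log axis for the 15 measured genes with the largest ratio in each direction, in 719 arterial cells (red) and 6694 comparison cells (grey); bars are 95% counting intervals of 1 library. Cytl1 and Clu lie at 86.1 and 353 in arterial cells, and Car4 at 98.0 against 925.

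A list of 35 arterial endothelial genes without the 5 selection markers was set beside the name of the cells. It was chosen with earlier results of these data known and is no independent check. Of its 31 measured genes, 17 were at least 2-fold higher in arterial cells and 1 was at least 2-fold lower, where 2.91% and 2.13% of all measured genes passed those bounds. The same 2 shares stand beside each list count between arterial and comparison cells below. A list with only 1 gene past a bound is not read as different from them. Of the 17, 5 were measured only through the arterial cells, Cytl1, Clu, Gja4 and S100a6 among them. The list's median log2 ratio was 1.33. Sema3g, a secreted semaphorin of arterial endothelium, was at 513 CPM against 95.7 CPM (5.36-fold, 5.09 to 5.65). Thinned to 1000 UMIs, 39.7% of arterial cells (36.1 to 43.4) and 8.35% of comparison cells (7.69 to 9.05) had a Sema3g UMI, and without thinning 88.6% and 23.4%. Stmn2, a microtubule-destabilising stathmin, was at 427 CPM against 31.5 CPM, 13.5-fold (12.5 to 14.6). Alpl, the tissue-nonspecific alkaline phosphatase by which brain arterioles are stained, was at 378 CPM against 75.6 CPM, 5.00-fold (4.70 to 5.31). Tm4sf1, a tetraspanin-like membrane protein, was abundant in both groups, at 2253 and 514 CPM. Of the arterial gap-junction proteins, Gja4 (connexin 37) was at 103 CPM against 3.28 CPM (31.4-fold, 25.4 to 39.2), while Gja5 (connexin 40) had UMIs in 42 arterial and 3 comparison cells and was under the floor for a measured gene. Efnb2, the arterial ephrin, was 2.25-fold higher (2.10 to 2.42), at 204 CPM against 90.7 CPM. The single list gene past 2-fold in the other direction was Cxcl12, a chemokine of arterial and capillary endothelium, at 1702 CPM against 3970 CPM (2.33-fold lower). After thinning, a median of 9 list genes was found per arterial cell (quartiles 7 and 11) and 5 per comparison cell (4 and 6). None of Sema3g, Alpl, Stmn2 and Hey1 had a UMI in the 11 non-endothelial barcodes, whose median depth was 4567 UMIs and 8 of which carried the pericyte gene Pdgfrb. Other list genes did: Gja4 was found in 4 of the 11 (36.4%), against 31.8% of arterial and 1.21% of comparison cells, Jag1 in 4 and Hey2 in 5.

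The Notch pathway, through which endothelial cells take and keep arterial fate, was mixed across roles. Among the ligands, Jag1 was at 216 CPM against 76.4 CPM (2.82-fold, 2.63 to 3.03), Jag2 at 429 CPM against 220 CPM (1.95-fold) and Dll4 at 193 CPM against 117 CPM (1.65-fold). The receptors differed less, with Notch1 at 1.29-fold and Notch4 at 1.46-fold. Among the targets, the transcriptional repressor Hey1 was at 264 CPM against 87.3 CPM (3.02-fold, 2.83 to 3.23) and the feedback inhibitor Nrarp at 80.3 CPM against 22.4 CPM (3.59-fold). Hes1, another target, was at 225 CPM against 285 CPM, and Rbpj, the DNA-binding partner of Notch, was near equal at 52.7 and 55.0 CPM. In all, 3 of 11 measured genes of the pathway were past 2-fold higher and none lower, with a median log2 ratio of 0.55. Of the 3, Nrarp was measured only through the arterial cells, and Jag1 and Hey1 are also in the arterial list. Sox17, the SoxF factor of arteries, was 1.49-fold higher (1.43 to 1.56), at 451 CPM against 302 CPM.

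Of 22 elastic-fibre and vessel-matrix genes only 5 were measured. Eln, Fbln2 and Bgn were past 2-fold higher, and these 3 were measured only through the arterial cells. Eln, tropoelastin itself, was at 152 CPM against 6.43 CPM (23.6-fold, 20.2 to 27.7) with UMIs in 38.0% of arterial cells. Fbln2, a fibulin of the elastic lamina, was at 232 CPM against 13.9 CPM (16.7-fold) in 57.3% of arterial cells. Bgn, a small proteoglycan, was at 88.3 CPM against 1.75 CPM, yet came from 5.98% of arterial cells. It was also found in 6 of the 11 non-endothelial barcodes, and its ratio of 50.4 was 14.6 without cells of more than 1 UMI of mural, fibroblast, microglial or leukocyte genes. The mural genes of that filter included Mylk, which was itself higher in arterial cells. The basement membrane of the endothelium itself was little different: Col4a1 was at 718 CPM against 660 CPM, and 1 of 12 measured genes was past 2-fold in each direction. Those were Col18a1, the source of endostatin, which was higher at 121 CPM against 1.34 CPM, and Nid2, which was 2.63-fold lower than the 42.2 CPM of the comparison cells. Col18a1 was measured only through the arterial cells.

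Vasoactive genes were higher for 4 of 8 measured and lower for none, where 2.91% of all measured genes were higher and 2.13% lower. Of the 4, 2 were measured only through the arterial cells, Ace and Trpv4, and Edn1 and Edn3 are also in the arterial list. Edn1, the precursor of the constrictor endothelin 1, was at 654 CPM against 217 CPM (3.01-fold, 2.88 to 3.13), and Edn3 at 185 CPM against 55.3 CPM. Ace, the angiotensin-converting enzyme, was at 76.9 CPM against 5.76 CPM (13.3-fold). Trpv4, a calcium channel of endothelium-dependent dilation, was at 78.5 CPM against 14.3 CPM. The endothelial synthase Nos3 was 1.17-fold higher, at 248 CPM against 212 CPM. Of the genes that respond to shear stress, Klf2 was at 2989 CPM against 2391 CPM and Klf4 at 1495 CPM against 1199 CPM, and Pi16 alone of 10 measured was past 2-fold. Pi16 was measured only through the arterial cells. In the TGF-beta and BMP pathway 1 of 15 measured genes was past 2-fold, the inhibitory Smad6 at 109 CPM against 36.8 CPM. Genes listed for fenestrated endothelium, which lacks a barrier, also differed: they summed to 694 CPM against 334 CPM (2.08-fold), and 62.2% of arterial and 12.5% of comparison cells had 3 or more of their UMIs. These 2 shares were not thinned and depend on depth. Of 6 measured, 2 were higher, 1 of them measured only through the arterial cells, and 1 was lower. Igfbp3, a binding protein for insulin-like growth factors, was 5.35-fold higher, at 274 CPM against 51.2 CPM. Plvap, the defining gene of that endothelium, was at 0 in the arterial cells by the rule.

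Most measured capillary genes were lower past 2-fold. Of 12 measured genes of the capillary list, 7 were at least 2-fold lower and none higher, and the log2 ratios ran from -3.24 to 0.38 with a median of -1.26. Car4, the membrane carbonic anhydrase of capillary endothelium, had the largest ratio of all measured genes in this direction, at 98.0 CPM against 925 CPM (9.43-fold lower, 8.64 to 10.3). Thinned to 1000 UMIs, a Car4 UMI was found in 4.89% of arterial cells (3.43 to 6.73) and 49.6% of comparison cells (48.3 to 50.8). Without thinning the shares were 18.8% and 77.2%, and 7 of the 11 non-endothelial barcodes carried a Car4 UMI. Hmcn1, a giant matrix immunoglobulin protein, was at 135 CPM against 736 CPM, and Tfrc, the transferrin receptor, at 110 CPM against 422 CPM. Mfsd2a, the lipid transporter that restrains transcytosis, was 1.78-fold lower over all arterial cells, at 254 CPM against 453 CPM. It was not lower in the 154 arterial cells of cluster 4, described below, at 532 CPM (488 to 579). In arterial cells of clusters 6, 7, 12, 14 and 15 it was at 372, 226, 264, 109 and 47.5 CPM.

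Barrier solute carriers were split. Of 17 measured, 8 were at least 2-fold lower and none higher, with a median log2 ratio of -0.92. The amino acid carriers Slc38a3 and Slc1a1 were at 94.5 and 128 CPM against 315 and 442 CPM, and the iron exporter Slc40a1 at 113 CPM against 348 CPM. Slc2a1, the GLUT1 glucose transporter, was at 2915 CPM against 2798 CPM (1.04-fold, 1.02 to 1.06). The taurine carrier Slc6a6 was 1.45-fold higher, at 2338 CPM against 1613 CPM. Of 5 measured ABC efflux genes and 10 measured junction genes none was past 2-fold. Among 22 measured Wnt genes 2 were lower, both targets and inhibitors of the pathway: Apcdd1 at 122 CPM against 452 CPM and Nkd1 at 76.8 CPM against 196 CPM. Of 16 pan-endothelial genes 1 was past 2-fold, the VEGF receptor Kdr at 324 CPM against 711 CPM. Pecam1 and Cdh5, which define endothelium, were at 1015 and 759 CPM against 883 and 659 CPM.

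Venous genes did not move together. Of 12 measured, 5 were lower, 1 was higher, and the median log2 ratio was -0.53. Slc38a5, a glutamine carrier of venous endothelium, was at 23.6 CPM against 137 CPM (5.80-fold lower, 4.84 to 7.01), and Nr2f2, the COUP-TFII factor of venous fate, at 12.7 CPM against 38.9 CPM. Tmsb10, a thymosin, was at 189 CPM against 1032 CPM. Vwf, von Willebrand factor, which is known from both arteries and veins, was the gene that was higher, at 253 CPM against 102 CPM (2.48-fold, 2.32 to 2.64). It was not higher in all arterial cells. In those of clusters 4, 6, 7, 12 and 14, described below, it was at 238, 188, 107, 153 and 650 CPM. In those of cluster 15 it was at 36.3 CPM (24.3 to 52.1). In 1059 kept cells with no UMI of the 5 markers or Plvap that carried UMIs of at least 2 of Nr2f2, Slc38a5, Lcn2, Il1r1, Ctsc and Flrt2, and at least 3 UMIs of these 6, a group chosen after the values were seen, Vwf was at 242 CPM, so that arterial and venous-marked cells were 1.05-fold apart. In the same venous-marked cells Sema3g was at 24.4 CPM, Alpl at 28.6 CPM and Hey1 at 35.5 CPM, each below its level in the comparison cells as a whole. Of the arterial cells, 32 (4.45%) themselves carried the 6 venous genes at that level, and 12 of these made up all arterial cells of 1 cluster, cluster 11 below.

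**Figure D2:**
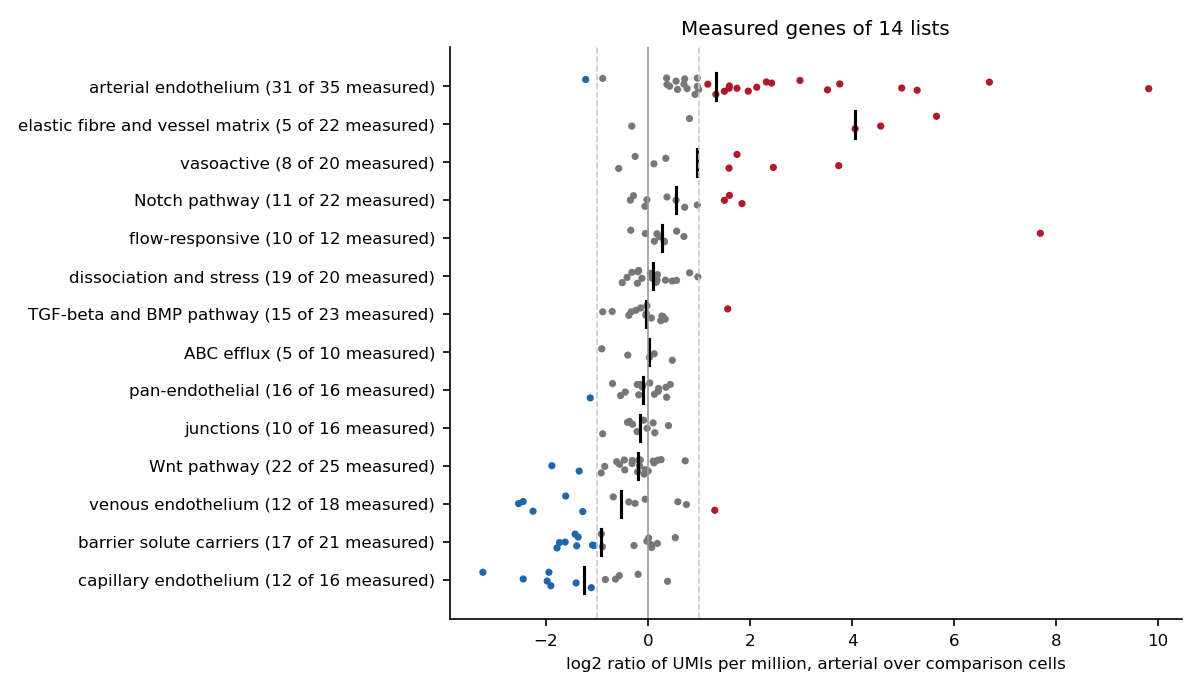
Log2 ratio of summed CPM, arterial over comparison cells, for each measured gene of 14 lists; black bars are medians, dashed lines mark 2-fold, and vertical scatter only separates points. The arterial list has its median at 1.33 and the capillary list at -1.26, while the stress list has its median at 0.09.

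Among the leading lower genes, Ttr, a choroid plexus transcript, stood apart. It was at 7.03 CPM against 52.5 CPM, but the choroid plexus list reached 1336 UMIs in 1 comparison cell, and with cells of 5 or more mural or fibroblast UMIs left out its ratio was 0.655. Gatm, an enzyme of creatine synthesis, was at 95.5 CPM against 529 CPM, and Ndnf, a secreted glycoprotein, at 39.4 CPM against 201 CPM. Mt2, a metallothionein, was at 20.3 CPM against 120 CPM. Of 19 measured genes that respond to dissociation none was past 2-fold, with a median log2 ratio of 0.09. Fos was 1.47-fold and Nr4a1 1.97-fold higher in arterial cells, and Hspa1b was 1.25-fold lower.

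Summed levels of the arterial and capillary lists were close on either side of the threshold. Several single genes were close as well, and others differed. The arterial list summed to 9758 CPM in comparison cells, 10523 CPM in cells with 1 marker UMI, 13822 CPM in the 86 cells just outside the rule with 2 UMIs of 2 markers, and 13713 CPM in the 93 arterial cells just inside it with 3 UMIs. It reached 16998 CPM in the 194 arterial cells with 20 or more. The capillary list ran the other way, from 10377 CPM in comparison cells over 8494 CPM just outside and 7778 CPM just inside to 4856 CPM in the cells with 20 or more. The 122 cells with 3 or more UMIs of a single marker, which the rule left out, were at 11269 CPM for the arterial list, 6776 CPM for the capillary list and 3166 CPM for the venous list. Sema3g was at 410 CPM just outside and 378 CPM just inside, Alpl at 305 and 301 CPM, and Stmn2 at 283 and 273 CPM. S100a6 was at 33.7 CPM just outside and 104 CPM just inside, but at 74.4 CPM in the 128 cells with 2 UMIs of 1 marker. Azin1, an inhibitor of antizyme, was at 225 CPM just outside, 404 CPM just inside and 227 CPM in those 128 cells. Clu went from 35.6 CPM just outside and 88.1 CPM just inside to 847 CPM, and Eln from 22.5 CPM just inside to 381 CPM. Hey1 was flatter, at 223 CPM just outside, 252 CPM just inside and 289 CPM at 20 or more. The venous list was not ordered: it was at 1992 CPM in comparison cells, 923 CPM in arterial cells with 3 marker UMIs, 747 CPM at 6 to 19 and 1922 CPM at 20 or more. In the last class Vcam1 was at 451 CPM and Vwf at 445 CPM, whereas Slc38a5 was at 17.8 CPM and Nr2f2 at 11.9 CPM. Median depth also went up over these classes, from 4283.5 UMIs in comparison cells and 5801 at 3 marker UMIs to 7531.5 at 20 or more; its part in these levels was not tested.

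**Figure D3:**
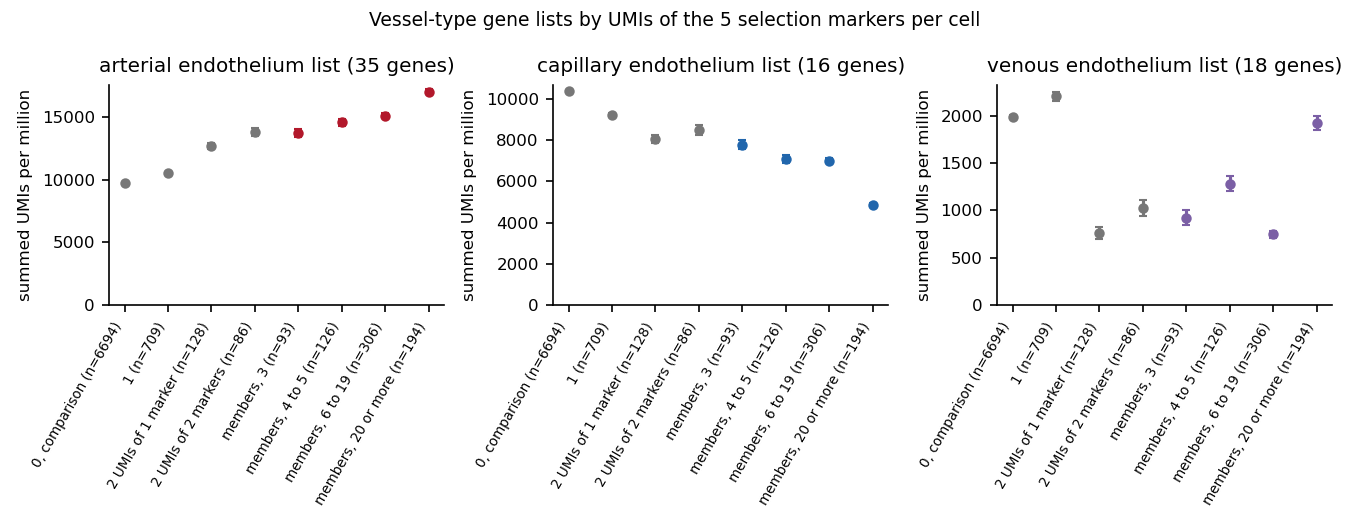
Summed CPM of the arterial, capillary and venous lists (y axes start at 0) by the UMIs of the 5 selection markers per cell; coloured points are arterial cells, grey points are other cells, n is the number of cells, and bars are 95% counting intervals. The arterial list goes from 9758 to 16998 and the capillary list from 10377 to 4856, while the venous list returns to 1922 in the last class.

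All kept cells were clustered without the 5 markers, Plvap and Cldn5, so that the markers themselves could be read against the clusters. Clusters 12, 14 and 15 were picked because, among clusters of at least 20 cells, most of their cells were arterial cells (65.3%, 93.5% and 82.8%). Together they held 372 of the 719 arterial cells (51.7%) and 22 of the 6694 comparison cells (0.329%). The low share of comparison cells follows from that choice and is no separate result. High shares of the selection markers in these 3 clusters follow from it in large part as well, since the markers define the arterial cells. Of the other 347 arterial cells, all but 1, which was a cluster of its own, lay in clusters shared with comparison cells. These were chiefly cluster 4 with 154, cluster 7 with 90 and cluster 6 with 45. In all cells of cluster 14, 95.4% carried Mgp, 86.3% Bmx, 85.0% Gkn3, 68.6% Vegfc and 56.2% Fbln5. Cluster 15 carried Fbln5 (64.8%) and Vegfc (71.3%) in at least as large a share of its cells, but Gkn3 in only 25.4%. Cluster 12 carried Bmx in 68.4%, Vegfc in 58.2% and Gkn3 in 50.5%, with Fbln5 in 5.10%. Cluster 17 carried Mgp in 90.0% of its 30 cells, Bmx in 3.33% and the other 3 markers in none, and held 1 arterial cell. Among the arterial cells alone, Gkn3 was at 1805 CPM in cluster 14 and 201 CPM in cluster 15, Mgp at 10888 and 1567 CPM, and Fbln5 at 987 and 376 CPM, against 14.3 CPM of Fbln5 in cluster 12. Median depth in these arterial cells was 5849 UMIs in cluster 14, 7575 in cluster 15 and 6940.5 in cluster 12.

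**Figure D4:**
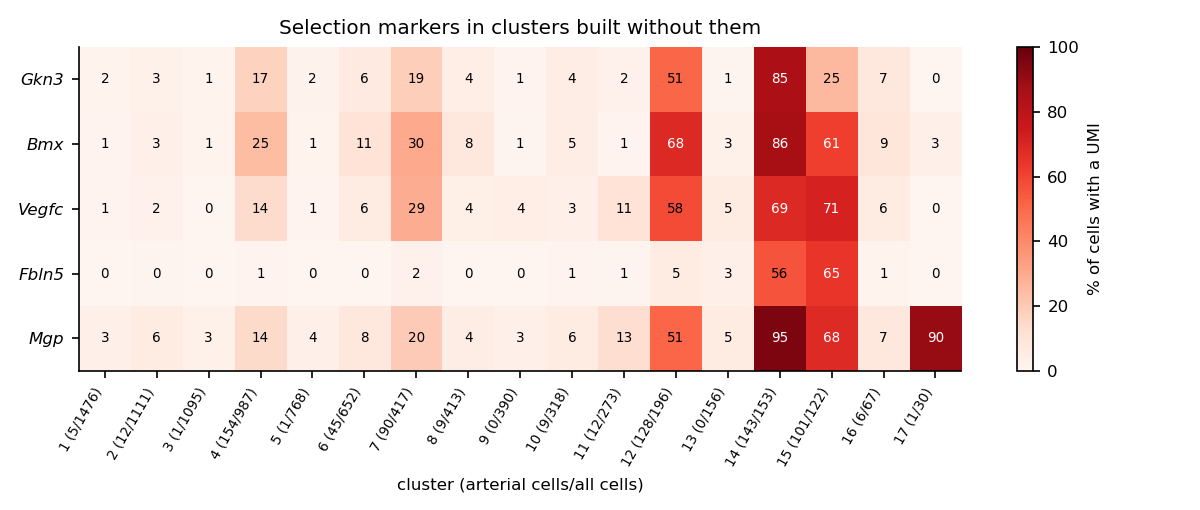
Share of cells with a UMI of each selection marker in the 17 clusters with at least 20 cells, built without these genes; the labels give arterial cells over all cells of a cluster. Clusters 12, 14 and 15 were picked for their share of arterial cells, which the markers define, so high marker shares there follow in large part from the choice. They carry the markers in most cells, apart from Fbln5 in cluster 12 (5.10%) and Gkn3 in cluster 15 (25.4%). Cluster 17 carries Mgp with hardly any other marker.

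The clusters were made from the other genes, so those genes' levels describe the clusters and are no separate result. In arterial cells of cluster 14 Cytl1 was at 489 CPM, Bgn at 492 CPM, Eln at 564 CPM and Vwf at 650 CPM, and Cytl1 was at 0 in arterial cells of clusters 12 and 15. Clu was at 1027 and 907 CPM in arterial cells of clusters 14 and 15, and between 10.8 and 69.5 CPM in those of clusters 4, 6, 7 and 12. Nos1 was at 176 and 169 CPM in clusters 14 and 15 and at most 26.5 CPM in clusters 4, 6, 7 and 12. In arterial cells of cluster 15 Pi16 was at 728 CPM, S100a6 at 729 CPM and S100a4 at 356 CPM, beside Fos at 3597 CPM, an early response gene that was at 263 CPM in cluster 12 and 4549 CPM in cluster 7. Slc2a1 was at 1176 CPM in cluster 15 and between 2841 and 4097 CPM in the other 5 of these clusters. Vwf, Igfbp3 and Edn3, which were higher over all arterial cells, were at 36.3, 40.0 and 48.8 CPM in those of cluster 15, none above its level in the comparison cells. The 347 arterial cells outside clusters 12, 14 and 15 were compared with the comparison cells on their own. There 94 of 5849 measured genes were at least 2-fold higher (1.61%) and 54 lower (0.923%), and 14 of 27 measured arterial-list genes were higher. Sema3g was at 422 CPM in them against 95.7 CPM (4.41-fold, 4.11 to 4.73), Hey1 at 250 CPM against 87.3 CPM (2.86-fold) and Tmem100 at 225 CPM (interval of its ratio 12.4 to 15.9). Jag1, at 121 CPM, was 1.58-fold higher in these cells. S100a4 had a ratio of 3.56 (0.360 to 18.7) and Bgn of 2.04 (0.885 to 4.15), against 266 and 50.4 over all arterial cells.

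The arterial cells were also divided by 4 of the markers that had selected them, so the division is a description. Cells with more Fbln5 and Mgp than Bmx and Vegfc UMIs numbered 375, those with fewer numbered 303, and 41 were tied. Median depth was alike, at 6778 and 6952 UMIs. Of 5889 genes measured in the pair, 66 (1.12%) were at least 2-fold higher in the matrix-leaning cells and 15 (0.255%) at least 2-fold higher in the signal-leaning cells. Eln was at 260 CPM in matrix-leaning and 34.7 CPM in signal-leaning cells (7.49-fold, 5.92 to 9.60), Clu at 597 and 89.4 CPM (6.67-fold), and Nos1 at 112 and 16.9 CPM. Cytl1 was found in 37 matrix-leaning cells and no signal-leaning cell, which against a floor of 3 UMIs over the group makes it at least 126-fold higher. Ptgis, the prostacyclin synthase, was at 57.9 and 3.56 CPM, and Vcam1 at 379 and 68.5 CPM. The iron-binding protein Lcn2 came from 11 matrix-leaning cells, and 48.2% of all Rgs5 UMIs of the arterial cells came from 1 cell. Signal-leaning cells were at least 2-fold higher for 2 of 13 measured capillary genes and 1 of 17 solute carriers. Hmcn1 was at 191 CPM in them against 92.9 CPM, and the carrier Slc1a1 at 181 CPM against 83.8 CPM. Cxcl12 was at 2354 CPM in them against 1140 CPM, and the transcription factor Sox4 at 57.9 CPM against 20.6 CPM. Genes that were near equal between the 2 kinds included Hey1, at 257 CPM in matrix-leaning and 277 CPM in signal-leaning cells, and Sema3g, at 557 and 473 CPM. None of 11 measured Notch genes was past 2-fold, and 5 of 7 measured venous-list genes were higher in matrix-leaning cells. A gene could pass the floor through the matrix-leaning cells alone, and such genes were not counted apart in this pair. Of the matrix-leaning cells 69.1% lay in clusters 12, 14 and 15, and of the signal-leaning cells 32.3%. The split depended on Mgp: with Fbln5 alone against Bmx and Vegfc, 83 cells leaned to matrix and 591 to signal, and 218 genes were at least 2-fold higher and 252 lower.

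**Figure D5:**
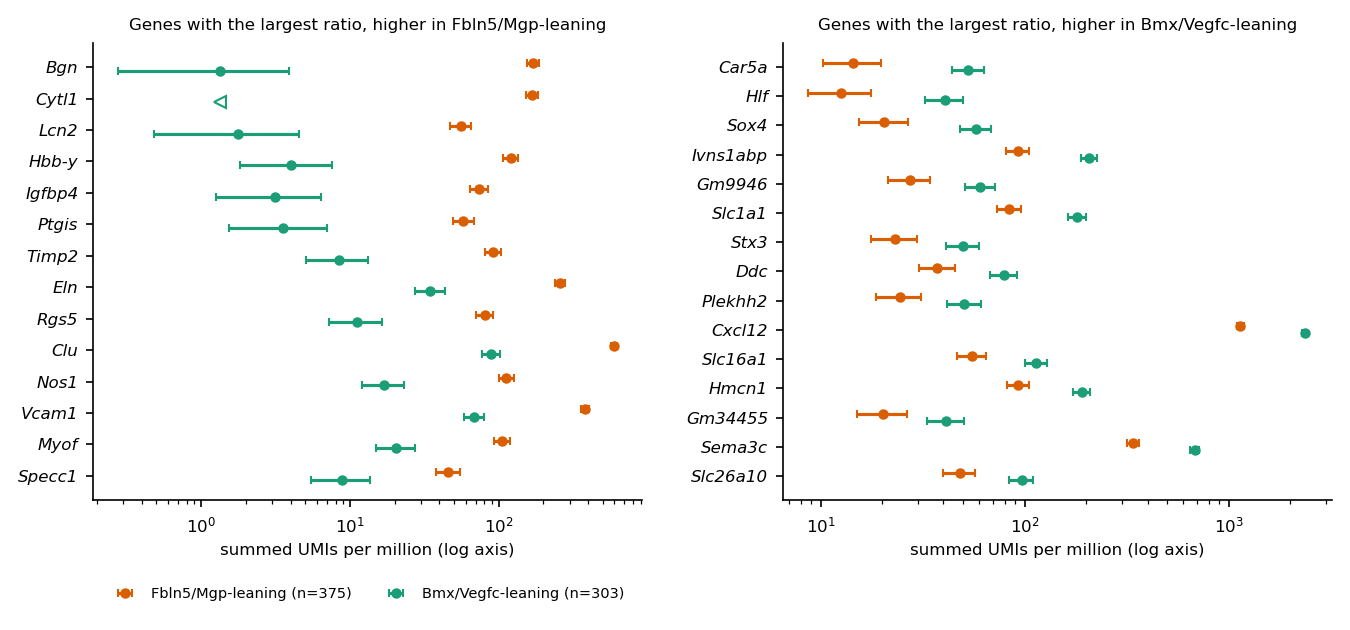
Summed CPM on a log axis for the genes with the largest ratio in each direction between 375 matrix-leaning (orange) and 303 signal-leaning (green) arterial cells; bars are 95% counting intervals, and the open triangle marks the 3-UMI floor where Cytl1 had no UMI. Eln lies at 260 against 34.7, and Cxcl12 at 1140 against 2354.

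UMIs of genes known from other vessel-wall cells were counted in the arterial cells, although the sort had taken PDGFRβ- cells; their source was not tested. Of 12 smooth muscle genes only Mylk, the myosin light chain kinase, was measured, at 113 CPM against 11.3 CPM. Mylk passed the floor only through the arterial cells. The other 11 summed to 78.1 CPM against 11.4 CPM and had a UMI in 165 arterial cells (22.9%) and 255 comparison cells (3.81%). They were at 5 or more UMIs in 5 arterial cells, 1 of which held 153, and Cnn1 and Actg2 were at 0. Pericyte genes summed to 70.5 CPM against 62.6 CPM and fibroblast genes to 24.4 CPM against 2.83 CPM, with 6 of 12 fibroblast genes at 0 in arterial cells, Dcn, Lum and Col1a1 among them. A single arterial cell held 49.9% of the pericyte UMIs of the arterial cells, and a single arterial cell 24% of the fibroblast UMIs. In comparison cells the largest pericyte sum of 1 cell was 294 of 1966 UMIs. With every cell of more than 1 UMI of mural, fibroblast, microglial or leukocyte genes left out, 480 arterial cells remained, and 18 of 30 measured arterial-list genes were at least 2-fold higher. Over all 5906 genes measured in that setting, the count of higher genes stayed within 1.5 times the main value of 172. Some ratios were then more than 1.5 times smaller: Eln 13.3, Bgn 14.6, Cytl1 163 and Mylk, which is itself in the smooth muscle list, 4.95. That filter counted Mylk, which had a UMI in 71.3% of arterial cells of cluster 14. Eln, Bgn and Cytl1 were also higher there than in arterial cells of clusters 12 and 15. The part of Mylk in the smaller ratios was not tested. With the 19 arterial and 65 comparison cells of 5 or more mural or fibroblast UMIs, counted without Mylk, left out, 169 genes were higher, 122 lower, and the Eln ratio was 21.9. Erythroid genes summed to 6414 CPM in arterial and 10804 CPM in comparison cells, and 1 arterial cell held 25.5% of the former; with them left out of the totals 172 genes were higher and 126 lower.

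In bulk RNA of sorted endothelial cells fewer cells of a type and less RNA per cell cannot be told apart, so the markers give only the levels of the mixture. Gkn3, a secreted gastrokine named for the stomach, was at 13.2, 8.25 and 28.8 CPM in the 3 brain libraries and had no count in any of the 3 lung and 3 liver libraries. Mgp was at 180, 47.8 and 107 CPM in brain, 25.4, 9.02 and 30.2 CPM in lung, and 5.09, 0 and 3.55 CPM in liver, so that the brain libraries lay above all others. Fbln5 was at 48.8, 36.1 and 51.6 CPM in brain and at most 6.10 CPM in lung and 4.98 CPM in liver. Bmx, at 26.6 to 41.9 CPM in brain, overlapped with lung, at 9.24 to 36.8 CPM, and Vegfc did as well, at 16.5 to 64.4 CPM in brain and 18.7 to 54.2 CPM in lung. Nos1 was at 6.47 to 18.3 CPM in brain, and in lung and liver its highest value was 0.177 CPM. Some leading genes were higher in another tissue: Tmem100 was at 9.59 to 21.3 CPM in brain and 376 to 460 CPM in lung, Gja4 at 1.67 to 17.2 CPM in brain and 117 to 290 CPM in liver, and Bgn at 30.2 to 100 CPM in brain and 2118 to 2459 CPM in liver. These markers were picked for brain arteries, and the tissue comparison was not tested here.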

How the data were processed

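The single-cell values were UMI counts for 32285 genes and 9405 barcodes, deposited by the authors as 1 table; the bulk values were counts per gene symbol, also deposited by the authors. Per the submitters' processing notes the tools included Cell Ranger 1.2.0, TopHat and HTSeq 0.6.1, with builds mm9 and mm10, none tied to an assay. Filters on barcodes before deposit, and the handling of strand, are not stated in the labels, so antisense, overlapping and near-identical genes (hemoglobins, Hspa1a with Hspa1b) are uncertain. ATAC-seq data were not used here.

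The members and gene lists were chosen with earlier results of these data known. UMIs were summed per group (Python 3.11.15, scipy 1.17.1), intervals of CPM are exact Poisson, of shares Clopper-Pearson and of ratios exact conditional binomial, all at 95% and for counting error only. The ratio computation was checked on simulated counts. A count of 0 was set to a floor of 3 UMIs. Genes named are the 15 with the largest ratio each way, up to 4 per list past 2-fold, and a fixed set of markers; further list members, and genes in the cluster, matrix and bulk paragraphs, were picked after their values were seen. One leading gene of the matrix split is not reported here. Thinning drew UMIs without replacement and left out 3 arterial and 178 comparison cells below 1000 UMIs. Clusters used scikit-learn 1.9.0, igraph 0.11.9 and leidenalg 0.10.2, with 2000 variable genes, 30 components, 15 neighbours and Leiden resolution 1. Doublet scores came from Scrublet in scanpy 1.11.5. Scrublet marked 1 of 8645 cells (0.0116%) and so did not work as a doublet caller; leaving out the 5% highest scores, cells with 5 or more mural or fibroblast UMIs, erythroid genes, or the arterial cells of clusters 12, 14 and 15 were alternatives added after seeing the data. The bulk labels call replicates biological. No counts were tested between groups; alternatives are in the closing section.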

Additional observations from a re-analysis of the deposited data

How the results depend on the processing

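No paired analysis was possible because no result comes from a test between sample groups: the arterial and comparison cells lie within 1 library. The counts of higher (172) and lower (126) genes stayed within 1.5 times their value in each of the planned changes of comparison group, depth, averaging, marker rule, cell filter and doublets. A CPM floor of 50 in place of 25 gave 107 higher and 82 lower genes, and 2 in place of 5 lower venous-list genes, with 3721 genes measured; a floor of 10 gave 293 higher genes out of 8410. Without the arterial cells of clusters 12, 14 and 15, added after seeing the data, 94 genes were higher, 54 lower, and 3 venous-list genes lower, with 347 cells. The arterial list had between 14 and 20 higher genes and the capillary list between 5 and 8 lower genes over these settings. Of 73 named genes past 2-fold, 57 were past 2-fold in the same direction in each setting other than the CPM floors, and none changed direction. The 73 were in large part named for their ratios in these same cells, so these counts are no independent check. Without the arterial cells of those clusters 14 were no longer past 2-fold, among them Jag1 and Nr2f2.

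Shares of cells were higher at greater depth, by construction: thinned to 2000 in place of 1000 UMIs they were 61.2% for Sema3g, 50.6% for Alpl, 44.7% for Stmn2, 37.2% for Hey1, 15.6% for Gja4 and 23.8% for Clu. At Leiden resolution 0.5 the clusters rich in arterial cells held 40.9% of them, against 51.7%. The matrix split without Mgp gave 218 higher and 252 lower genes. Leaving out each brain bulk library moved the mean of Gkn3 between 10.7 and 21.0 CPM, Bmx between 31.4 and 39.1 CPM, Vegfc between 27.5 and 51.4 CPM, Fbln5 between 42.5 and 50.2 CPM and Mgp between 77.5 and 143 CPM; with Rn45s left out of the totals, Fbln5 averaged 54.2 CPM. For other moves the cause was not tested. Genes under the floor of 25 CPM, such as Gja5, enter no count.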
